A study of Mus musculus with 11 samples.

Results

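The L1 family of neural adhesion genes has 4 members in the mouse, L1cam, Chl1, Nrcam and Nfasc, and all 4 are described here, out of 21631 protein-coding genes. Every peak of the 11 deposited lists that touched one of these genes, or the 25 kb beyond either end of it, was taken, which gave 59 peaks of 158808. The lists come from CUT&RUN, a method that sequences the DNA which a nuclease, tethered by an antibody, releases around a chromatin protein or mark. The cells were 2 untreated mouse tumour-derived lines, M00002 and M00001, labelled with a different mouse each and grown on Matrigel in neural medium with bFGF and EGF. Both carry an HA-tagged protein labelled CRfus1, taken here as the ZFTA-RELA fusion of the series title, and a line without it was not analysed here. In M00002 the targets were HA, p65 (the protein encoded by Rela) and H3K27ac, a histone mark of active promoters and enhancers, with antibodies ac4729 and ac647. In M00001 they were HA, the coactivators Cbp and p300, and Rpb1, which forms the catalytic core of RNA polymerase II, with the antibodies written S2 and S5. An IgG control library came from each line. Each target had 1 library per line, so no value here has a replicate error and no difference was tested. The lists held between 1806 peaks (IgG, M00001) and 30680 peaks (HA, M00002), and read depth is unknown.

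Proteins of the L1 family cross the membrane once, with immunoglobulin and fibronectin type III domains outside the cell and a short tail inside that binds ankyrin and so the spectrin cytoskeleton. They are known for axon growth and guidance, for the clustering of channels at nodes of Ranvier and initial segments, and for binding to one another, to contactins and to integrins. L1CAM is in wide use as a tissue marker of supratentorial ependymoma with this fusion. RELA is a subunit of NF-kappaB, so a p65 antibody can also recognise a RELA part of the fusion. Peaks show where a protein or mark was found and are no measure of RNA.

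The 4 genes differed widely. Nfasc had 35 peaks, Chl1 15, Nrcam 7 and L1cam 2. Without peaks that overlap IgG of either line, Nfasc still had 35 and Nrcam 7, while Chl1 had 4 and L1cam 0. L1cam was taken up as lacking peaks within 5 kb of its ends, so its count could vary only farther out. The genes also differ in length: L1cam spans 27.1 kb (X, 73853778 to 73880838, minus strand), Nfasc 177 kb (chromosome 1, 132564690 to 132741848, minus), Chl1 222 kb (chromosome 6, 103510584 to 103733038, plus) and Nrcam 276 kb (chromosome 12, 44328786 to 44605194, plus). All coordinates are of mm10. Peaks are therefore also given per 100 kb of window, beside genes of the same class of length.

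**Figure D1:**
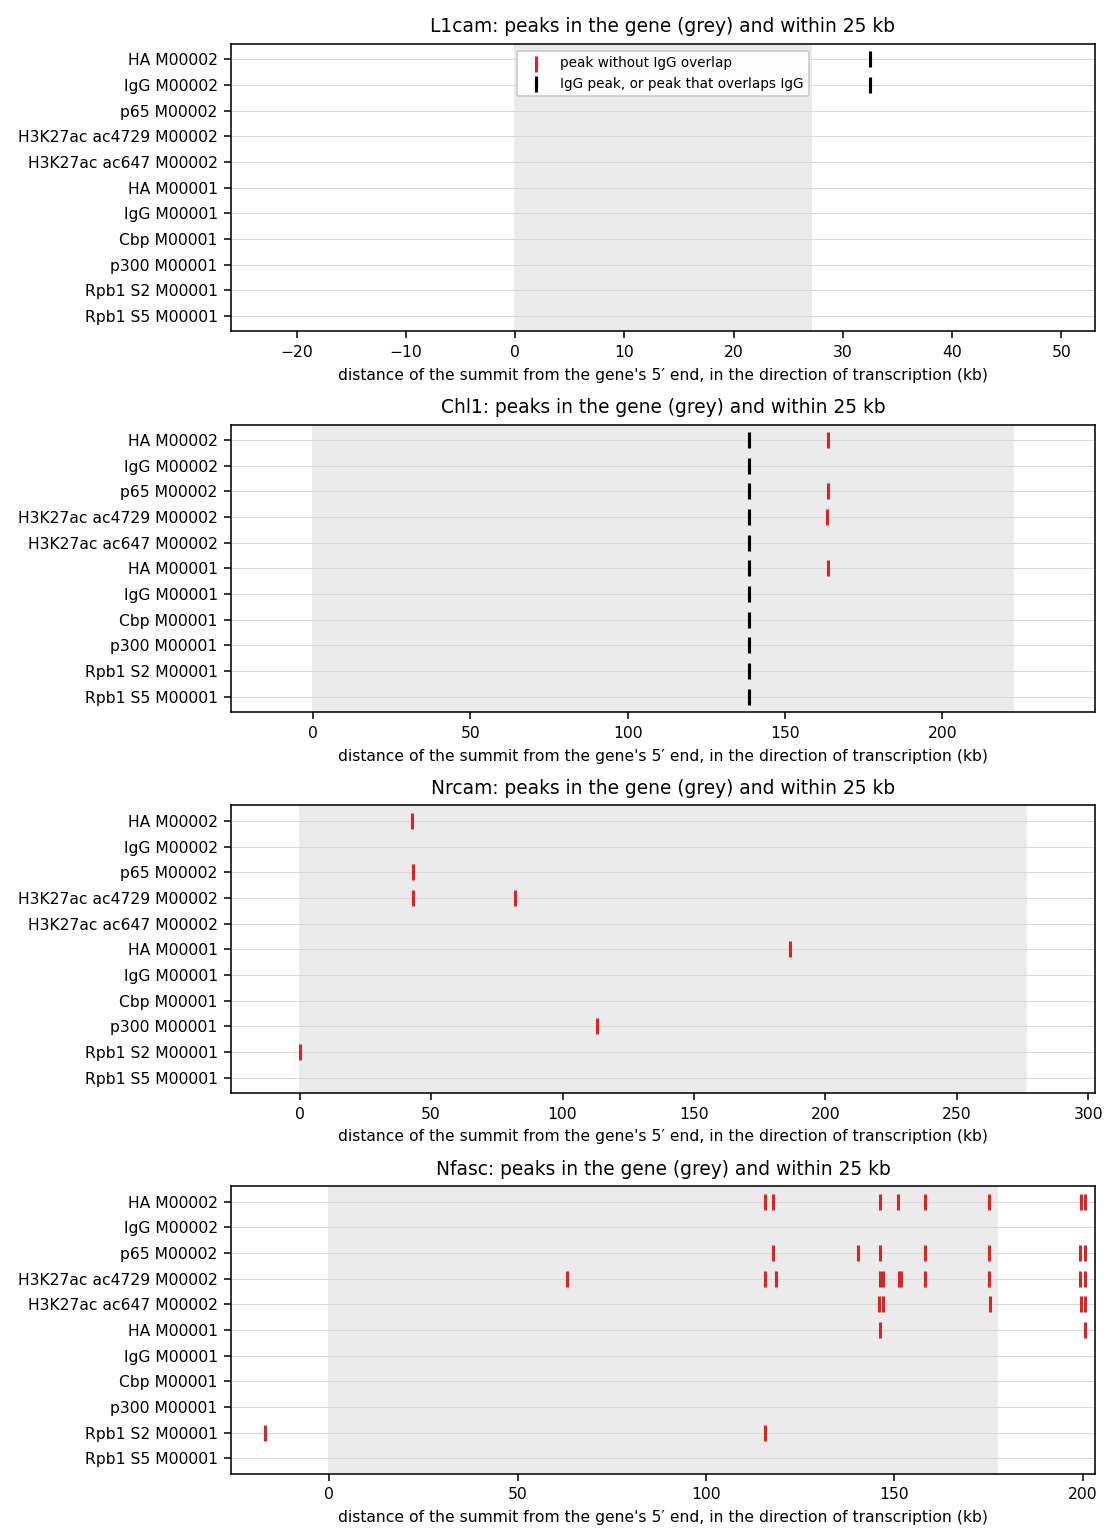
Peaks of the 11 lists in the 4 genes (grey) and within 25 kb of their ends, by distance of the summit from the 5′ end in kb; black marks are IgG peaks or peaks that overlap IgG. Nfasc carried 35 peaks, none of them on IgG, Chl1 a column of 11 at a site shared with IgG, and L1cam only an HA peak on an IgG peak.

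In the counts of members that follow, the gene body of L1cam and 5 kb beyond its ends were known beforehand to be empty. L1cam could thus add a peak only from the outer part of its window, which is not so for the genes behind the shares. HA peaks of M00002 lay in the windows of 4 of 4 members, against 67.2% of all protein-coding genes. HA of M00001 lay at 3 of 4, all but L1cam, against 36.2%. With HA free of IgG of the same line in both lines, the count was 3 of 4, against 32.6% of all genes, 44.8% of the 2427 genes of 100 kb or more, and 33.5% of the 6392 genes of 10 to 30 kb, the class of L1cam. p65 lay at 3 of 4 members (49.0% of all genes), ac4729 at 3 (64.6%) and ac647 at 2 (42.7%). Rpb1 S2 lay at 3 (67.1%), S5 at 1 (48.4%), Cbp at 1 (23.1%) and p300 at 2 (25.7%). Counting only peaks without IgG overlap, p65 and ac4729 stayed at 3 members. With the same limit ac647 lay at 1, S2 at 2, p300 at 1, S5 at 0 and Cbp at 0. The shares given beside these targets are for all peaks. No share under the same limit is given for them, so these IgG-free counts cannot be called low or high. IgG lay at 2 members in M00002 (19.9%) and at 1 in M00001 (6.46%). Of the members, 3 are long genes. Among genes of 100 kb or more, the shares were 85.8% for HA of M00002, 48.6% for HA of M00001, 65.7% for p65, 81.2% for ac4729, 60.6% for ac647, 72.4% for S2, 57.3% for S5, 39.0% for Cbp and 40.6% for p300. For IgG they were 41.9% in M00002 and 13.4% in M00001. With 3 long members, these counts are too small to set apart from the shares of long genes.

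At L1cam, the known tumour marker, neither the gene nor its flanks held a peak that was free of IgG. The only HA peak in the window belonged to M00002 and lay 5.42 kb beyond the 3′ end (73848277 to 73848363), with a fold enrichment of 3.74, in the lower part of its list (percentile 33.3), and a −log10 q of 1.46. It sat inside an IgG peak of the same line (73848249 to 73848412) with a fold of 6.69 and a −log10 q of 6.65, which stood at percentile 91.5 of the IgG list. L1cam was taken up as a marker known to lack peaks within 5 kb of its ends, so the shares of its length class that follow are a description and no independent comparison. In that class 68.7% of genes had HA of M00002 in the window, 68.4% had ac4729 and 75.0% had Rpb1 S2. L1cam was among the 851 of 6392 genes (13.3%) that had none of p65, H3K27ac, Cbp, p300 and Rpb1, and the same pair of lists, HA and IgG of M00002, was all that 17 other genes of the class had. The neighbours inside the window, Avpr2, which encodes a vasopressin receptor, and Arhgap4, had 0 peaks there.

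The nearest IgG-free peaks to L1cam formed a single site of 7 lists, 34.0 kb upstream of its 5′ end and outside the window. It lies between Arhgap4 and Naa10, which encodes the catalytic subunit of an N-terminal acetyltransferase, 1.94 kb from the nearer end of Naa10. HA had a fold of 17.5 there in M00002 (73914859 to 73915173) and 9.45 in M00001 (73914856 to 73915102). p65 had 13.0, ac4729 4.62, ac647 3.85, Rpb1 S2 10.3 and S5 7.42. For p300 the nearest peak was 395 kb from L1cam and for Cbp 579 kb. HA stood at this site in both lines, and the lists do not tie it to L1cam or to its nearer neighbours.

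Chl1, the close homologue of L1, held 2 sites, both inside the gene. The more 5′ of them (103649048 to 103649353) was a peak of all 11 lists, IgG of both lines included, with summits within 14 bp of each other. HA had a fold of 106 in M00002 and 65.8 in M00001, beside IgG at 69.6 in M00002 and 66.7 in M00001. p65 had 105 and H3K27ac 50.0 (ac4729) and 59.6 (ac647), while Cbp had 49.8, p300 49.5, Rpb1 S2 51.6 and S5 51.4. It was the peak with the highest fold in 9 of the 11 lists and stood second in the HA and p65 lists of M00002. Folds of different lists are not on 1 scale, and 11 of the 15 peaks of Chl1 stood at this site shared with IgG. Of the 1806 IgG peaks of M00001, 236 overlapped a peak of each of the other 10 lists, 176 of them on chromosomes 1 to 19 and X.

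The other Chl1 site lay 24.6 kb further on, 164 kb from the 5′ end, and held no IgG. HA of M00002 had a fold of 9.76 (103674227 to 103674483, percentile 85.9 of its list, −log10 q 12.4) and HA of M00001 a fold of 4.97 (103674307 to 103674660, percentile 60.7, −log10 q 3.26). p65 had 7.19 (103674265 to 103674433) and ac4729 3.64 (103673911 to 103674440), while ac647, Cbp, p300, Rpb1 S2 and S5 had no peak there. This was the only site of Chl1 that the HA libraries of both lines shared without IgG. With IgG-overlapping peaks left out, Chl1 had 0.367 HA peaks per 100 kb in M00002, against a median of 0.916 over genes of 100 kb or more, 22.8% of which had fewer. In M00001 it also had 0.367, against a median of 0, and 64.7% had fewer.

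**Figure D2:**
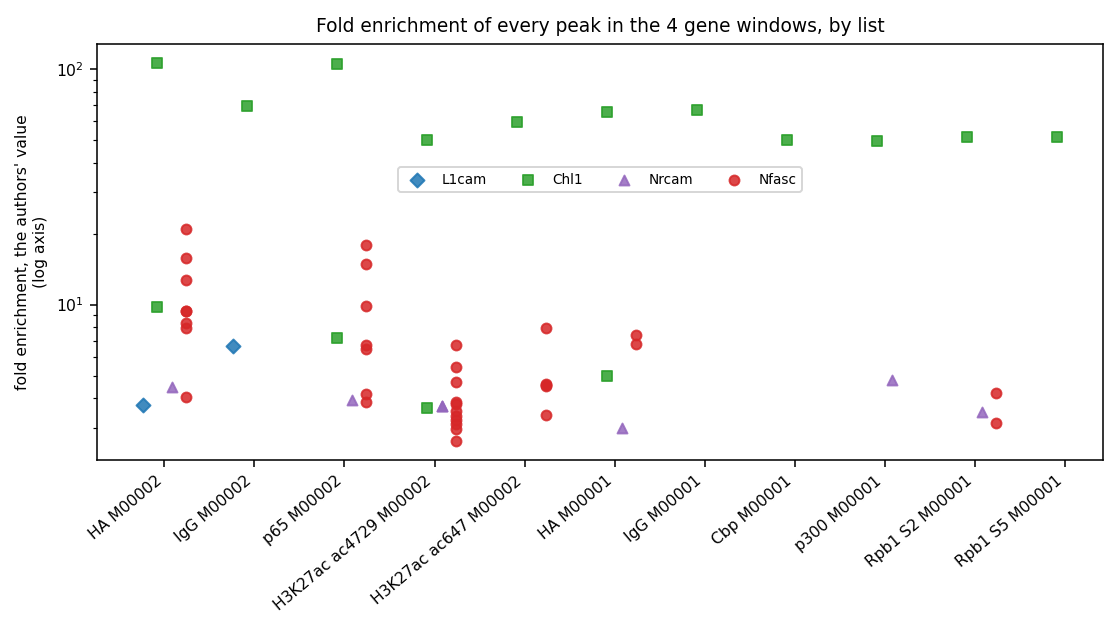
Fold enrichment (the authors' value over the peak caller's background, log axis) of each of the 59 peaks in the 4 gene windows, by list; values are comparable within a list only. The squares at the top are the Chl1 site of all 11 lists, between 49.5 and 106, and the Nfasc circles reach 21.0 in HA of M00002.

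Nrcam, which encodes the ankyrin-binding protein known from nodes of Ranvier, was the longest member and had 7 scattered peaks at 5 sites, 0 of them on IgG. HA of M00002 (44371639 to 44371732, fold 4.49, percentile 49.7), p65 (44371673 to 44371838, fold 3.94) and ac4729 (44371329 to 44372167, fold 3.70) shared a site 42.9 kb from the 5′ end. HA of M00001 lay elsewhere, 187 kb from the 5′ end (44515362 to 44515523), with a fold of 2.98, percentile 6.70 of its list and a −log10 q of 0.110. The lines thus had no HA site in common at Nrcam. With peaks of −log10 q of at least 5 alone, Nrcam had 0 of its 7 peaks left. A second ac4729 peak lay 81.8 kb from the 5′ end (fold 3.70) and a p300 peak 113 kb from it (44441840 to 44442101, fold 4.80, percentile 77.2), each without another list. HA of M00002 reached 0.306 peaks per 100 kb, and 19.2% of genes of 100 kb or more had fewer.

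Nrcam was also the only member with a peak at a listed transcription start. RefSeq starts of GRCm38.p6 list 1 start for Chl1, 1 for Nrcam, 2 for L1cam and 2 for Nfasc. Both Nfasc starts (132642858 and 132707326) lie inside the gene, so its 5′ end at 132741848 is not covered by the counts or promoters given here. The peaks nearest that end were of Rpb1 S2, 17.1 kb beyond it, and of ac4729, 63.1 kb into the gene. L1cam was taken up as lacking peaks within 5 kb of its ends, where its listed starts lie. Its 0 in the counts that follow was thus fixed beforehand, and only Chl1, Nrcam and Nfasc could vary. Within 1 kb of a listed start, 0 of 4 members had HA of M00002 (25.5% of 17274 genes with a listed start), 0 had HA of M00001 (10.6%), 0 had ac4729 (33.4%) and 1 had Rpb1 S2 (42.5%). That S2 peak covered the Nrcam start and ran into the gene (44328879 to 44329458), with a fold of 3.52, percentile 38.8 of its list and a −log10 q of 3.25. The promoter sequences of RefSeq (250 bases before the start and 50 after it, GRCm38.p6, 5′ to 3′) are shown for Nrcam, as the only one that a peak touched, for L1cam, as the tumour marker without one, and for the upstream listed start of Nfasc, the member with most peaks. In Nrcam (chr12:44328635-44328934, plus strand) the capitals mark the 56 bases inside the Rpb1 S2 peak. In L1cam (chrX:73880785-73881084, minus strand) and Nfasc (chr1:132707277-132707576, minus strand) they mark a match to the loose kappaB pattern described after them.
Nrcam: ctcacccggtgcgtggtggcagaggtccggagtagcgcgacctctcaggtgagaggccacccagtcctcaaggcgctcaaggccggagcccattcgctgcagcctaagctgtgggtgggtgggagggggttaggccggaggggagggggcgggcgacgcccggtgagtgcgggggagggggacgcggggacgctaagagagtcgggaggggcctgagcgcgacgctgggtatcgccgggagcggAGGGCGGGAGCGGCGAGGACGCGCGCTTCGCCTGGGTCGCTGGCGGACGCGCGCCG
L1cam: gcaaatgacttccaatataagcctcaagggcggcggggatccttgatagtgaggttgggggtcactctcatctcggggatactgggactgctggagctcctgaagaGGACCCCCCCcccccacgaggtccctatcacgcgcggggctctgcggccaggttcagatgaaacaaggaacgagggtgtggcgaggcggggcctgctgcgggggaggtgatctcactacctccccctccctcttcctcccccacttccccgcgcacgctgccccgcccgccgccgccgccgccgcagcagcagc
Nfasc: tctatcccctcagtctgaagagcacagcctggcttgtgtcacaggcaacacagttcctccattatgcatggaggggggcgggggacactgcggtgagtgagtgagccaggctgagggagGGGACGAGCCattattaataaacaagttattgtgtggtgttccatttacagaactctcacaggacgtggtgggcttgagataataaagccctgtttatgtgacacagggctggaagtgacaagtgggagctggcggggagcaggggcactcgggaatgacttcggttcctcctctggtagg
Patterns of the kappaB site, which NF-kappaB binds, were searched on both strands in the 6 promoters of the family. The tight pattern, GGGA and TTCC with any 2 bases between them, was in 0 of 6, and in 1.47% of 32619 RefSeq promoters. The loose pattern, GGG and CC with any 5 bases between them, which includes the tight one, was in 5 of 6, all but Chl1, and in 51.1% of all promoters, so a match to it is common. It was found once in each L1cam promoter, which overlap each other, once in each Nfasc promoter and 5 times in Nrcam, where 1 pair of matches overlaps.

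Nfasc had more peaks than its paralogues together. It encodes neurofascin, which gathers sodium channels at nodes of Ranvier and anchors paranodal glial loops. Its window held 8 HA peaks and 7 p65 peaks of M00002, 11 of ac4729, 5 of ac647, 2 of HA and 2 of Rpb1 S2 of M00001, and 0 of IgG in either line. The nearest IgG peaks were 42.6 kb (M00002) and 83.8 kb (M00001) beyond its 5′ end. HA of M00002 had 3.52 peaks per 100 kb, against a median of 0.934 over genes of 100 kb or more, 92.2% of which had fewer. HA of M00001 had 0.880 per 100 kb, and 88.6% had fewer. p65 had 3.08 (median 0.447, 96.5% with fewer), ac4729 4.84 (median 1.11, 95.1%) and ac647 2.20 (median 0.402, 90.0%). Rpb1 S2 had 0.880 (median 0.692, 53.6%), and S5, Cbp and p300 had 0 peaks. HA, p65 and H3K27ac were thus dense for a long gene, and Rpb1 S2 stood near the middle of long genes. The H3K27ac and p65 lists come from M00002 and those of Cbp, p300 and Rpb1 from M00001. Target and line thus cannot be told apart in that contrast. The Cbp, p300 and Rpb1 libraries are also titled with an unexplained number, which is absent for HA and IgG of M00001. Whether that IgG library was handled in the same way as these targets is unknown.

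**Figure D3:**
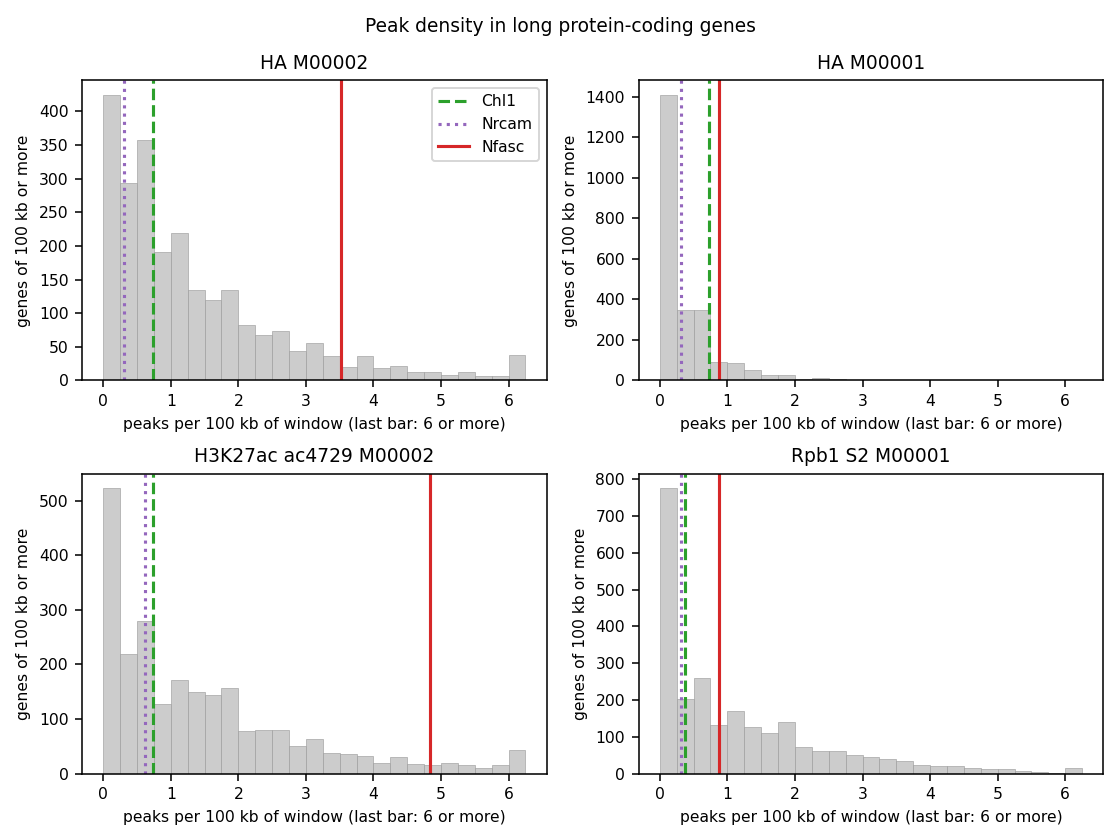
Peaks per 100 kb of window over the genes of 100 kb or more (grey bars, number of genes; the last bar holds 6 or more), with Chl1 (dashed), Nrcam (dotted) and Nfasc (solid) as lines, for 4 lists. Nfasc stood at 3.52 for HA of M00002 and 4.84 for ac4729, and Nrcam at 0.306 and 0.613.

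The peaks of Nfasc gathered in its 3′ part. Of the 25 peaks with any overlap of the gene itself, 24 had their summit in the 3′ 50% of it and 1, of ac4729 alone, in the 5′ 50% (132678615 to 132678902, fold 5.46), where the gene overlaps the long noncoding RNA Gm46157. With −log10 q of at least 5 required, 21 of the 35 peaks in the window were left. The 6 HA peaks of M00002 inside the gene lay 116 to 175 kb from the 5′ end, over 59.6 kb. All of them lay downstream of both listed starts, by 16.7 to 76.1 kb from the nearer one.

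The strongest stood 2.04 kb from the 3′ end (132566660 to 132566802), with an HA fold of 21.0, percentile 98.7 of its list, and −log10 q of 42.4. p65 had a fold of 17.9 there (132566668 to 132566780), with its summit 8 bp from that of HA. H3K27ac had 6.72 with ac4729, over 1171 bp (132566224 to 132567394), and 7.93 with ac647, over 873 bp, at percentiles 95.7 and 94.6. HA of M00001 had no peak at this site.

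The site shared by both lines inside the gene lay 146 kb from the 5′ end. HA had a fold of 12.7 in M00002 (132595688 to 132596148, percentile 92.2) and 6.81 in M00001 (132595688 to 132596010, percentile 79.7), with summits 6 bp apart. p65 had 9.86, ac4729 3.36 and ac647 4.62 at the same place. This site and the IgG-free site of Chl1 are the only ones inside a member that carried HA in both lines without IgG.

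The other 4 HA peaks inside Nfasc were of M00002 alone. At 158 kb from the 5′ end HA had a fold of 9.39 (132583697 to 132583877), with p65 at 4.20 and ac4729 at 3.78. At 151 kb it had 7.94 (132590735 to 132590887), with ac4729 at 3.10 and no p65. At 118 kb it had 8.35 (132624061 to 132624322), with p65 at 6.71 and no H3K27ac. The weakest, at 116 kb (132626122 to 132626222), had 4.07 and a −log10 q of 1.84, with ac4729 at 3.86 and the only Rpb1 S2 peak inside the gene at 3.16. A p65 peak at 140 kb (132601420 to 132601532, fold 3.85) was the only one of 7 without HA. H3K27ac without HA stood at 3 further sites in the 3′ part, with ac4729 folds of 2.64 (132590063 to 132590295), 3.55 (132594886 to 132595074, with ac647 at 3.39) and 2.98 (132623335 to 132623567). The remaining peak of the window, of Rpb1 S2, lay 17.1 kb beyond the 5′ end (132758782 to 132759219, fold 4.21).

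**Figure D4:**
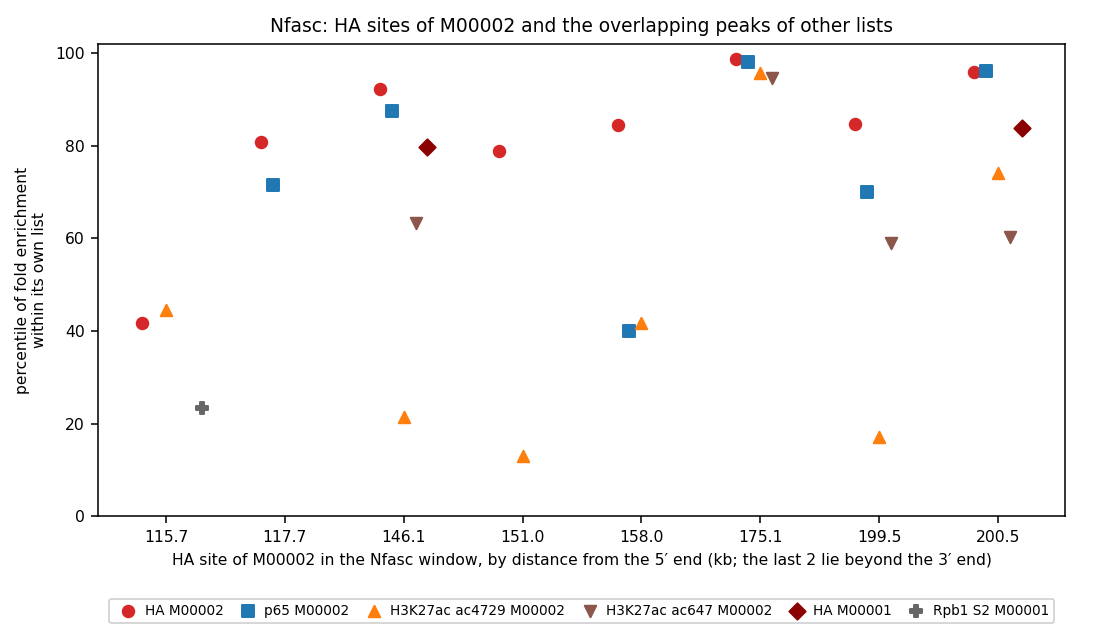
The 8 HA sites of M00002 in the Nfasc window in order of distance from the 5′ end (kb), with the percentile of fold enrichment of each overlapping peak within its own list. HA of M00001 overlapped 2 of them, and at the site 175 kb from the 5′ end HA, p65 and both H3K27ac lists of M00002 stood at percentile 94.6 or higher.

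The last pair of HA sites in the Nfasc window lies inside a neighbouring gene. They lie 22.3 and 23.4 kb beyond the 3′ end of Nfasc, inside Cntn2 (132509425 to 132543251, minus strand), 0.547 and 1.62 kb downstream of the listed start of that gene. Cntn2 encodes contactin 2, a lipid-anchored adhesion protein that binds L1 family members. The site farther into Cntn2 had HA folds of 15.8 in M00002 (132541223 to 132541448) and 7.44 in M00001 (132541255 to 132541496), p65 at 14.9, ac4729 at 4.71 and ac647 at 4.58. The one nearer its start had HA of M00002 at 9.40 (132542357 to 132542493), p65 at 6.48, ac4729 at 3.23 and ac647 at 4.54. Of the 35 peaks counted for Nfasc, 9 overlap Cntn2, and the lists do not tie them to either gene.

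Across the 4 windows, 9 of 12 HA peaks of M00002 overlapped p65 (75.0%, exact Clopper-Pearson 95% interval 42.8 to 94.5), against 33.7% (33.1 to 34.2) of the 29925 HA peaks elsewhere on chromosomes 1 to 19 and X. With ac4729 the counts were 10 of 12 (83.3%, 51.6 to 97.9), against 37.0% elsewhere, and with ac647 5 of 12 (41.7%, 15.2 to 72.3), against 22.3%. HA of M00001 overlapped 4 of 12 (33.3%, 9.92 to 65.1), against 16.9%. In turn, 4 of the 5 HA peaks of M00001 overlapped HA of M00002 (80.0%, 28.4 to 99.5), against 55.4%. Each of these counts includes the Chl1 site on IgG, which was a peak of all 11 lists and so overlapped every target. The intervals for ac647 and for HA of the other line, in both directions, hold the share elsewhere. All intervals cover counting error only, and neighbouring peaks, 8 of the 12 in the Nfasc window, are not independent, so no interval serves as a test of a difference. IgG of M00002 was under 2 of the 12 (16.7%, 2.09 to 48.4, at L1cam and Chl1), against 2.54% elsewhere. Over the 4 windows, 11 of 12 HA peaks of M00002 overlapped p65 or H3K27ac (91.7%, 61.5 to 99.8), against 49.5% elsewhere. That count also includes the Chl1 site on IgG. In the Nfasc window alone, which was dense in p65 and H3K27ac peaks, the count was 8 of 8 (100%, 63.1 to 100). Of the 5 HA peaks of M00001, 1 overlapped Rpb1, the Chl1 peak on IgG (20.0%, 0.505 to 71.6), an interval that holds the 47.0% elsewhere.

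Genes whose 11 densities were most like those of a member were sought in the class of 100 kb or more by Pearson r of log2(1 + peaks per 100 kb) over the 11 lists. All genes share the libraries, and the longest lists are high at most of them, so the values are descriptions. Nearest to Nfasc were Helz (r = 0.988), Chd7 (0.978) and Epb41l3 (0.977), the last of which encodes a membrane skeleton protein. Nearest to Nrcam were Fam13c (0.970), Dmxl2 (0.887) and Wdr64 (0.876), and nearest to Chl1, whose profile includes the site on IgG, were Xkr4 (0.946), Lifr (0.929) and Nol4l (0.897).

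Genes of cytoskeletal and other partners of the family, of proteases that cut it and of other neural adhesion proteins were counted in the same windows. In the ankyrin and spectrin group, HA free of IgG in both lines lay at 6 of 7 genes, p65 lay at 7 of 7 (49.0% of all genes and 65.7% of those of 100 kb or more) and Rpb1 S2 at 7 of 7 (67.1% and 72.4%). Among those 6 genes the HA densities summed over both lines were highest at Sptbn4, a spectrin of nodes of Ranvier, with 5 HA peaks in M00002 and 2 in M00001, Sptan1 with 3 and 1, Epb41l3 with 3 and 2, and Sptbn1 with 3 and 1. Of the 7 genes 5 are 100 kb or longer, a class in which 44.8% of genes had such HA. Among cytoplasmic partners 2 of 7 had HA in both lines, Msn (6 and 3 peaks) and Ezr (5 and 1), which encode moesin and ezrin, linkers of membrane proteins to actin. Of the proteases that cut L1 proteins, Adam10, Adam17 and Bace1, 0 of 3 did, and 2 of 3 had HA in M00002, against 67.2% of all genes. The Cntn2 window overlaps that of Nfasc, so its HA peak of M00001 and some of its HA peaks of M00002 were also counted for Nfasc. Among extracellular and receptor partners 5 of 11 had HA in both lines free of IgG, led by Ncan, the proteoglycan neurocan, with 4 peaks in M00002 and 3 in M00001, Cntn2 (5 and 1), the growth factor receptor gene Fgfr1 (6 and 1) and the semaphorin receptor gene Nrp1 (5 and 1). Of 16 other neural adhesion genes with immunoglobulin domains, 13 of which are 100 kb or longer, 10 had it. They were led by Mcam (3 and 1), Cadm3 (2 and 1), Sdk2 (7 and 2) and Ncam1 (7 and 2). At Ncam1, 6 of the 7 HA peaks of M00002 were free of IgG. IgG of M00002 lay at 9 of the 16 genes, against 19.9% of all genes and 41.9% of those of 100 kb or more. Over all genes the share with HA in both lines free of IgG was 32.6%. Outside the ankyrin and spectrin group, p65 lay at 3 of 7 cytoplasmic partners and 2 of 3 proteases. It lay at 5 of 11 extracellular and receptor partners and at 12 of 16 other adhesion genes. For Rpb1 S2 the counts were, in the same order, 6 of 7, 3 of 3, 6 of 11 and 9 of 16.

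As a check of what the H3K27ac lists show of the cells, 5 of 6 markers of radial glia and neural stem cells (Sox2, Sox9, Nes, Vim and Hes1) had H3K27ac of both antibodies within 5 kb of a gene end, against 19.8% of all protein-coding genes. For neurons the count was 0 of 6, for the oligodendrocyte lineage 0 of 6, for microglia and leukocytes 1 of 5 (Csf1r) and for endothelium 2 of 4 (Cdh5 and Cldn5). Of the 4 members, Nfasc alone passed the same rule, through the site at its 3′ end. L1cam could not have passed it, as it was taken up as lacking peaks within 5 kb of its ends.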

How the data were processed

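The 11 deposited peak lists, 1 per library and target, were used; every sample has its own list. The genome build was mm10, and the tools were MACS2, Bowtie2 2.3.5.1, Trim Galore, deepTools and FastQC, per the submitters' processing notes, which give no settings here; which control entered the calling is not stated there. The deposited lists have no header and follow the column order of MACS2, so the authors' values per peak are the fold (a ratio to background), the −log10 of a p-value and of a q-value, a score and the summit. Fold and q were used to describe and rank peaks within a list. The lists of HA and p65 of M00002 are marked 120 bp, without an explanation. For HA this coincides with line. The same unexplained number appears in the titles of Cbp, p300, Rpb1 S2 and Rpb1 S5 alone. Within M00001 it coincides with target and sets these libraries apart from the IgG control. The lists hold no read counts, so depth is unknown.

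A peak belonged to a gene when it overlapped the gene or 25 kb beyond its ends by at least 1 bp. Genes and starts came from RefSeq GRCm38.p6, the assembly behind mm10; exons and introns were not used here, nor were sequences under peaks. Windows of all 21631 protein-coding genes on chromosomes 1 to 19 and X were counted in the same way, in classes of length (under 10 kb, 10 to 30, 30 to 100, and 100 kb or more). Percentiles are ranks of fold within a list. Counting was tested on simulated data. Members, gene lists and tests were chosen with earlier results of these data known; the search of listed starts and promoters was added after the data were seen. Named partners were up to 4 per list with the highest summed HA density and HA in both lines free of IgG. Alternatives were gene body only, 5 kb flanks, −log10 q of at least 2 or 5, removal of IgG-overlapping peaks, summit placement and 50% overlap. Python 3.11.15, pandas 2.3.3, numpy 2.4.6 and matplotlib 3.10.9 were used.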

Additional observations from a re-analysis of the deposited data

How the results depend on the processing

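The 4 counts of peaks per gene and the 4 counts over the windows were recomputed under 6 settings, and the counts of overlap also with 50% of the shorter peak required. No paired analysis was possible because each target has 1 library per line and no result comes from a test. Leaving out a replicate was likewise not possible. For L1cam the 2 peaks became 0 with the gene body only and 0 with a window of 5 kb. Both values were fixed beforehand, because L1cam was taken up as lacking peaks within 5 kb of its ends. Its count became 0 without peaks that overlap IgG of either line. It was 1, the IgG peak, when −log10 q had to reach 2, and 1 when it had to reach 5. The 15 peaks of Chl1 became 4 without peaks that overlap IgG. At the limit of 5, Nrcam had 0 peaks in place of 7 and Nfasc 21 in place of 35. The same limit gave 3 HA peaks of M00001 in place of 5, and 7 HA peaks of M00002 overlapping p65 or H3K27ac in place of 11. The other 40 values were within 1.5 times those reported, among them 25 peaks of Nfasc in the gene body or with 5 kb. The 4 shared HA sites were 3 to 4 under every setting run. They include the Chl1 site on IgG and a site inside Cntn2, and no setting left out both. The unknown depth limits every absence: a site without a peak in a list may have been below what that library could show.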
